A study of Homo sapiens with 72 samples.

Results

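The mRNAs of 10 genes of the deadenylation machinery were followed in A375 cells, an established human melanoma line. They encode 4 adaptors of the BTG/TOB family (BTG1, BTG2, TOB1 and TOB2), 4 catalytic subunits of the CCR4-NOT complex (CNOT6, CNOT6L, CNOT7 and CNOT8) and both subunits of the PAN complex (PAN2 and PAN3). They were chosen by symbol, with earlier results of these data known. Each of the 10 symbols was found among the 44659 gene names of the count table. The measurement was QuantSeq, in which short reads are taken from the 3′ end of polyadenylated RNA, here from the cytoplasmic fraction.

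The 4 conditions were as follows. In siGL2 cells a control siRNA was transfected, and in siCTU2 cells a pool of 2 siRNAs against CTU2, which encodes a subunit of the enzyme that thiolates the wobble uridine of some tRNAs. Both were kept for 42 h. In pQ cells the medium held glutamine and in mQ cells it did not, both for 18 h. After this, cells of all 4 conditions received either triptolide (tryptolide in the sample labels, 25 µM), an inhibitor of transcription, hereinafter the T arm, or triptolide with cycloheximide (100 µg/ml), an inhibitor of translation, hereinafter the TCHX arm. Cells were harvested at once (0 h) or after 3 or 5 h. Each of the 24 groups had 3 libraries, 72 in all. No group was free of triptolide, since the 0 h cells were harvested just after its addition. Nothing in the sources says whether the 3 libraries of a group came from separate cultures, so that the p-values measure the spread between these libraries, which may be technical.

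Most mRNAs lose their poly(A) tail before they are decapped and degraded. CNOT7 and CNOT8 (CAF1-type nucleases) and CNOT6 and CNOT6L (CCR4-type nucleases) are paralogous pairs that remove the tail within CCR4-NOT, while PAN2, the nuclease of the PAN complex, is brought to the tail by PAN3. These CCR4-NOT and PAN subunits are called nuclease subunits below, although PAN3 is not itself the nuclease. The BTG/TOB proteins have no nuclease activity. They bind the CAF1-type subunits and recruit the complex to mRNAs, and they are known as growth-restraining proteins with short-lived, inducible mRNAs. BTG2 is also a well-known target of p53. Because translation and deadenylation are coupled on many mRNAs, a difference between the TCHX and T arms reads how much of an mRNA is kept when ribosomes are stopped.

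The sequences that define the comparison and the sites found in the members' 3′UTRs are shown first. The siCTU2 condition rests on 2 guide strands, printed with their seed (bases 2 to 8 from the 5′ end) in capitals, because a seed can pair with other mRNAs.
siCTU2#1 guide: uUGGUCAUgagcuugauag
siCTU2#2 guide: aAGUCCUUcauguucacgc
Their 19-base targets were found in coding sequence of the CTU2 transcript, at chr16:88713389-88713407 (exon 8 of 15) and chr16:88714907-88714925 (exon 13), on the plus strand of GRCh38. A match to the seed of siCTU2#1 was found in none of the 10 members' 3′UTRs. A match to the seed of siCTU2#2 was found once each in the 3′UTRs of BTG1, CNOT6, CNOT6L and CNOT7. The windows of CNOT6, whose level was lower in siCTU2 cells, and of BTG1, whose level was higher, are printed with the match in capitals, at chr5:180577422-180577451 (plus strand) and chr12:92142440-92142469 (minus strand).
CNOT6: gggtcatatatAAGGACTaaagccaagcta
BTG1: ccatataatagAAGGACTtgctgtttagtt
Among 3′UTRs of like length (0.8 to 1.25 times), 26.4% held this match in the case of CNOT6 and 25.6% in that of BTG1. A match is a description of the letters and not of pairing in cells.

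The AU pentamer ATTTA, the core of AU-rich elements read by decay factors, was searched on the sense strand of the 3′UTRs, with overlaps allowed. TOB1 held 4 pentamers in a 3′UTR of 757 bases, and 12.8% of 3′UTRs of like length held as many or more. A pair of adjacent pentamers is printed in capitals from chr17:50862655-50862684 (minus strand).
TOB1: tggtcttttctaattgtataATTTAATTTA
BTG1, BTG2 and TOB2 held 5, 2 and 3 pentamers in 3802, 2164 and 2817 bases, against medians of 8, 4 and 6 in 3′UTRs of like length. CNOT6, CNOT6L, CNOT7 and PAN3 held 17, 26, 20 and 11. In their cases 13%, 15.9%, 19.6% and 17.4% of 3′UTRs of like length held as many or more. For CNOT8 (3 pentamers) and PAN2 (2) these shares were 48.8% and 35.7%. A low share was thus not particular to TOB1. The Pumilio element (TGTANATA, with N any base) was searched in the same 3′UTRs. CNOT8 and BTG1 held 4 each, and 0.306% and 2.6% of 3′UTRs of like length held as many or more. CNOT7 held 2, CNOT6L and PAN3 held 1 each, and the other members held none.
These 3′UTRs are those of the canonical GENCODE transcripts on GRCh38. The genes lie on chromosomes 12 (BTG1 and PAN2), 1 (BTG2), 17 (TOB1), 22 (TOB2), 5 (CNOT6 and CNOT8), 4 (CNOT6L), 8 (CNOT7) and 13 (PAN3).

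The libraries held 5987692 to 15534331 counts each. CTU2 ranged from 0.133 to 2.95 CPM (counts scaled to a common library total) in 17 of the 18 siCTU2 libraries and from 17.5 to 35 CPM in the 18 siGL2 libraries. The library labelled siCTU2 TCHX 5 h replicate 3 went against its label at 10.4 CPM. It was 1 of 3 libraries that stood apart from the rest, together with those labelled mQ T 5 h replicate 3 and pQ TCHX 0 h replicate 3. The 3 libraries detected 19896 to 20364 genes, as compared to 15507 to 17495 in the other 69. They correlated with each other at r of at least 0.989 across 9779 genes, but with the other libraries of their own groups at no more than 0.956. Between the other libraries the r within the groups had a median of 0.987 and a lowest value of 0.898. A low r within a group was thus not confined to the 3. The 3 libraries held 31.1 to 32.6 CPM of the leukocyte gene PTPRC and 31.1 to 32.6 CPM of CD3E, against at most 0.759 and 0.304 CPM in the others, and 6.39 to 6.69 CPM of the keratinocyte gene KRT1. The other markers of these cell types were not raised in them. CD68, also a leukocyte marker, was at 5.32 to 8.52 CPM in the 3 libraries and at 2.95 to 20 CPM in the others. The keratinocyte genes KRT5 and KRT14 were at no more than 0.0994 and 1.22 CPM in any library. Of the 11 markers of other cell types, 2 (CD68 and PDGFRB) were above 1 CPM in the median over the 0 h libraries, and the summed level of the 11 ranged from 4.47 to 85.8 CPM over the 72 libraries. The melanocyte genes SOX10, MITF, S100B, DCT and PMEL were above 0 in all 72 libraries, while MLANA and TYR were near 0 (medians of 0.192 and 0.32 CPM at 0 h). The part of these 3 libraries in a result was not tested beyond the values given with and without them.

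The first question was which members differed between the conditions before decay began. At 0 h in the T arm, 5 of the 10 members passed the test between siCTU2 and siGL2 cells (Benjamini-Hochberg adjusted p below 0.05 in edgeR over 12292 genes). BTG1, BTG2, TOB2 and PAN2 were higher and CNOT6 was lower in siCTU2 cells. Of all genes tested, 36% passed in either direction, so that a share of 5 in 10 stands against a high background. The median log2 difference was 0.25 for the members and 0.00 for all genes.

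BTG2 showed the widest difference. It had 12, 24 and 26 counts (1.39, 2.71 and 3.21 CPM) in siGL2 cells, and 113, 81 and 145 counts (11.9, 7.47 and 11.3 CPM) in siCTU2 cells. The groups did not overlap, and the level was 4.18-fold higher in siCTU2 cells (log2 2.06, SE 0.31, adjusted p = 4.25e-05). Since bulk RNA was measured, a change in some cells and a change in RNA per cell cannot be told apart, here and below.

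TOB2 was at 26.6, 29.5 and 25.6 CPM in siGL2 cells and at 42.6, 45.6 and 44.6 CPM in siCTU2 cells, a 1.62-fold difference (log2 0.70, SE 0.12, adjusted p = 0.000111). BTG1 was at 239, 241 and 247 CPM as compared to 294 ± 19.4 CPM (SD, n = 3; lowest 272), which is 1.21-fold (log2 0.28, SE 0.07, adjusted p = 0.00524). In neither gene did the groups overlap. TOB1 was at 5.43, 6.21 and 10.6 CPM in siGL2 cells and at 11.1, 11.9 and 10.7 CPM in siCTU2 cells. All siCTU2 values lay above the siGL2 values, but the difference did not pass the test (log2 0.60, SE 0.24, adjusted p = 0.0605). It passed under 4 of the 11 alternatives: in the TCHX arm at 0 h (log2 0.99, adjusted p = 0.00108), and in the T arm without siGL2 replicate 3 (log2 0.94, adjusted p = 0.00627), with the replicate number as a block (0.63, 0.0289) and with no low-count filter (0.61, 0.0425).

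Among the nucleases, CNOT6 fell in siCTU2 cells. Its level was 56.4, 62 and 67.3 CPM in siGL2 cells and 27.9, 33.8 and 36.9 CPM in siCTU2 cells. The groups did not overlap, and the level in siCTU2 cells was 0.533 times that of siGL2 cells (log2 -0.91, SE 0.12, adjusted p = 9.38e-06). Its paralogue CNOT6L was at 25.2, 29 and 22.6 CPM as compared to 21, 26.4 and 27.4 CPM, overlapping ranges with a log2 difference of -0.04 (SE 0.15, adjusted p = 0.859). In the TCHX arm at 0 h, CNOT6L had the opposite sign and passed (log2 0.38, adjusted p = 0.0303), so that no direction can be given for it. The 4 siCTU2 comparisons of BTG1, BTG2, TOB2 and CNOT6 passed under each of the 11 alternatives tried.

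CNOT7 was at 275, 260 and 251 CPM in siGL2 cells and at 219, 244 and 238 CPM in siCTU2 cells (log2 -0.17, SE 0.07, adjusted p = 0.0776, and 0.0374 with the replicate block). CNOT8 and PAN3 had log2 differences of 0.09 and 0.23 and did not pass. PAN2 was at 8.43, 9.6 and 9.26 CPM and at 19.1, 9.59 and 14.2 CPM. These groups overlapped, and the call (log2 0.64, SE 0.23, adjusted p = 0.0342) was lost under 7 of the 11 alternatives, among them DESeq2 (adjusted p = 0.0556) and the fit without siCTU2 replicate 1 (log2 0.38, adjusted p = 0.231).

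**Figure D1:**
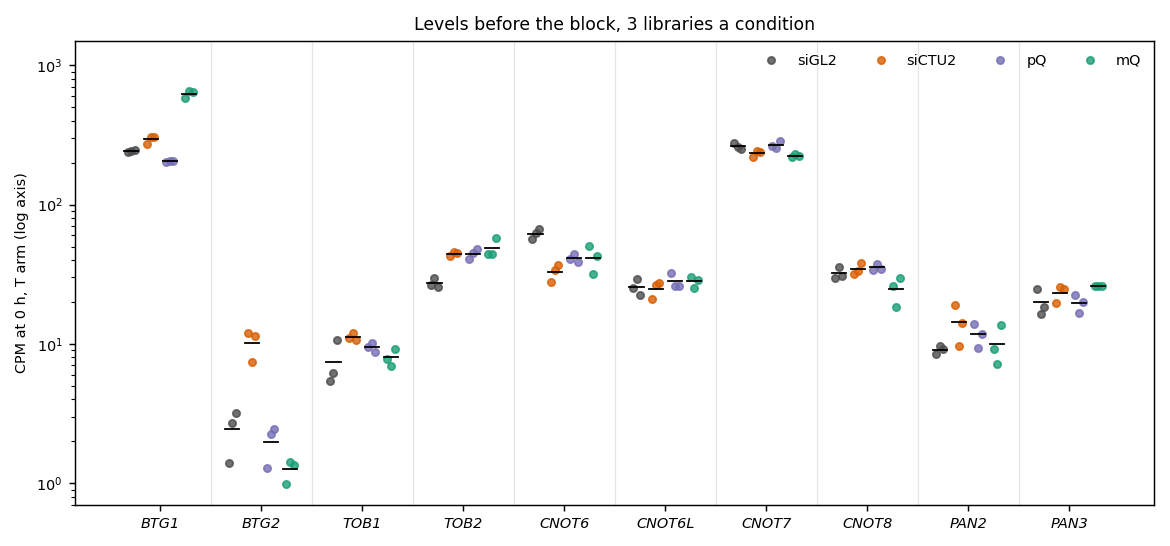
Levels of the 10 members at 0 h in the T arm, in CPM on a log axis, for siGL2, siCTU2, pQ and mQ cells. Each point is 1 library and each bar the mean of 3. The BTG1 points of mQ cells (581 to 653 CPM) and the BTG2 points of siCTU2 cells (7.47 to 11.9 CPM) lie above those of the other conditions, and the CNOT6 points of siCTU2 cells (27.9 to 36.9 CPM) lie below those of siGL2 cells.

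Without glutamine, 1 of the 10 members passed at 0 h, where 24.8% of 12374 genes passed in either direction. The median log2 difference between mQ and pQ cells was -0.06 for the members and 0.01 for all genes. The member was BTG1. Its level was 202, 206 and 207 CPM in pQ cells and 581, 653 and 647 CPM in mQ cells, which is 3.18-fold (log2 1.67, SE 0.10, adjusted p = 8.84e-07). The difference was many times the spread between libraries, and it was of 1.39 or more on the log2 scale under each of the 12 alternatives, the TCHX arm included.

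The other adaptors did not follow BTG1 beyond their error in mQ cells. BTG2 was at 1.29, 2.25 and 2.43 CPM in pQ cells and at 0.99, 1.43 and 1.35 CPM in mQ cells (log2 -0.61, SE 0.45, adjusted p = 0.354). TOB1 and TOB2 had log2 differences of -0.19 (SE 0.21) and 0.18 (SE 0.14), which did not pass (adjusted p = 0.545 and 0.354). Of the nuclease subunits, CNOT8 was at 34.1, 37.4 and 34.7 CPM in pQ cells and at 26, 18.3 and 29.6 CPM in mQ cells. These groups did not overlap, but the difference did not pass (log2 -0.48, SE 0.17, adjusted p = 0.0631), and in the TCHX arm the difference was 0.09 (adjusted p = 0.779). PAN3 was at 22.5, 16.7 and 20.1 CPM as compared to 26.1, 26 and 25.9 CPM, again without overlap and without passing (log2 0.45, SE 0.16, adjusted p = 0.0557). CNOT6, which was lower in siCTU2 cells, had a log2 difference of 0.07 (SE 0.16) in mQ cells. The siRNA and medium experiments have separate control cells, and their differences were not tested against each other.

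The level of BTG1 at 0 h in the T arm thus ran, in the order of the means, from mQ (627 ± 40 CPM, SD, n = 3) through siCTU2 (294 ± 19.4) and siGL2 (242 ± 4.5) to pQ (205 ± 2.87). No neighbours in this order overlapped. That of BTG2 ran from siCTU2 (10.2 ± 2.4) to siGL2 (2.44 ± 0.943), pQ (1.99 ± 0.615) and mQ (1.26 ± 0.233), of which the last 3 overlapped with each other.

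The next question was how fast each mRNA was lost once transcription was blocked. Counts of a library are shares of what is left, so they were scaled to genes whose share rose by 1.1 times or more after the block in each replicate (hereinafter stable genes, 197 used in the siRNA and 81 in the medium experiment), after the study's methods. None of the members was a stable gene. Levels are given below as a percentage of the mean 0 h value of both arms in the same replicate. With this choice the median gene itself fell, by 0.47, 0.55, 0.69 and 0.71 on the log2 scale between 0 and 3 h in siGL2, siCTU2, pQ and mQ cells. With TMM scaling, which centres the bulk of the genes, the median was -0.00 to 0.01, so that a fall should be read relative to this shift.

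At 3 h in the T arm, 7, 8, 9 and 8 of the 10 members were lower than at 0 h in siGL2, siCTU2, pQ and mQ cells, and none was higher. Of all genes tested, 28.6%, 36%, 55.2% and 55.4% were lower. The median log2 change of the members was -0.79, -1.03, -0.88 and -0.85, and that of all genes -0.47, -0.55, -0.69 and -0.71. The members fell in 2 parts: each of the 4 adaptors was lower in each of the 4 conditions, and the 6 nuclease subunits accounted for 3, 4, 5 and 4 of the calls. With TMM scaling 3, 4, 3 and 2 adaptors and none of the nuclease subunits passed. The split of all calls also moved, with 96.5%, 96.7%, 98.1% and 98.1% of them lower on the stable-gene scale and 86.3%, 83.1%, 84.8% and 81% with TMM.

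TOB2 was lost fastest among the members with over 20 counts in each library at 0 h. In siGL2 cells 6.7%, 11.9% and 7.75% of its 0 h level was left at 3 h, in siCTU2 cells 10.2%, 20.4% and 21.1%, in pQ cells 15.7%, 17.7% and 9.62%, and in mQ cells 11.8%, 8.4% and 8.63%. All 12 libraries were thus at 21.1% or lower, far from the 0 h range. The log2 changes were -3.42 (SE 0.24, adjusted p = 6.99e-08), -2.59 (SE 0.26, adjusted p = 4.14e-06), -2.94 (SE 0.25, adjusted p = 2.7e-07) and -3.33 (SE 0.54, adjusted p = 0.00045). At 5 h the level was 7.88 ± 1.52% in siGL2, 9.58 ± 0.355% in siCTU2 and 8.85 ± 0.893% in pQ cells (SD, n = 3). In mQ cells it was 6.04% and 5.13% in replicates 1 and 2, and 27.6% in the library that stands apart.

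BTG1 was lost more slowly and kept falling. At 3 h 32.6%, 35% and 25.4% was left in siGL2 cells, 35.1%, 42.2% and 31.3% in siCTU2 cells, 36%, 24.9% and 28.5% in pQ cells, and 24.3%, 20.3% and 22.4% in mQ cells. The mQ cells, which started with the highest level, had the lowest shares left, and their highest value (24.3%) was just under the lowest of pQ cells (24.9%). At 5 h the means were 11.5 ± 3.26%, 13.5 ± 2.29% and 12.6 ± 3.48% in the first 3 conditions, and the mQ libraries were at 4.97% and 5.17%, with 23.2% in the library that stands apart. The 3 h log2 changes were -1.71, -1.44, -1.72 and -2.20 (adjusted p = 9.45e-06, 7.22e-06, 1.42e-06 and 0.0012). The calls of TOB2 and BTG1 in this comparison held under every alternative tried, TMM scaling and each left-out replicate included.

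BTG2 fell to a few counts. In siGL2 cells 12, 24 and 26 counts at 0 h went to 0, 3 and 7 at 3 h and to 2, 1 and 1 at 5 h. In siCTU2 cells, where it started higher, 113, 81 and 145 counts went to 10, 26 and 23 and then to 10, 6 and 0. The shares left at 3 h were 12.3 ± 13.3% and 13.1 ± 7.99% (SD, n = 3), which overlap widely. The log2 changes were -2.98 (SE 0.67, adjusted p = 0.00317) and -3.08 (SE 0.48, adjusted p = 0.000153), and the first of these calls was lost without replicate 2 (adjusted p = 0.122). In pQ cells 65 counts over the 3 libraries at 0 h left 3 counts at 3 h, which is 3.45% of the 0 h level (95% exact interval 0.693% to 10.5%, counting error only). At 5 h no count was left, and the level was at least 27.8-fold lower, taken at a floor of 3 counts over the group. In mQ cells 35 counts left 3, or 6.17% (1.21% to 19.6%), and the call in mQ cells (log2 -3.88, adjusted p = 0.0479) was lost without replicate 2 (adjusted p = 0.192) and with the replicate block (0.0539). The only BTG2 counts of the mQ T arm at 5 h, 70 of them, were in the library that stands apart.

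TOB1 fell to 43.3 ± 5.37% of its 0 h level in siGL2, 34.5 ± 3.44% in siCTU2, 44 ± 13.6% in pQ and 24.1 ± 6.77% in mQ cells at 3 h (SD, n = 3). Its log2 changes were -1.33, -1.52, -1.31 and -2.13 (adjusted p = 0.0112, 0.000453, 0.00887 and 0.00324). It was measured with 6 to 138 counts a library in the T arm, and its calls in siGL2, pQ and mQ cells were lost when 1 replicate was left out: replicate 1 or 2 in siGL2 cells (adjusted p = 0.0842 and 0.0823), replicate 1 in pQ cells (0.0818) and replicate 2 in mQ cells (0.0629).

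**Figure D2:**
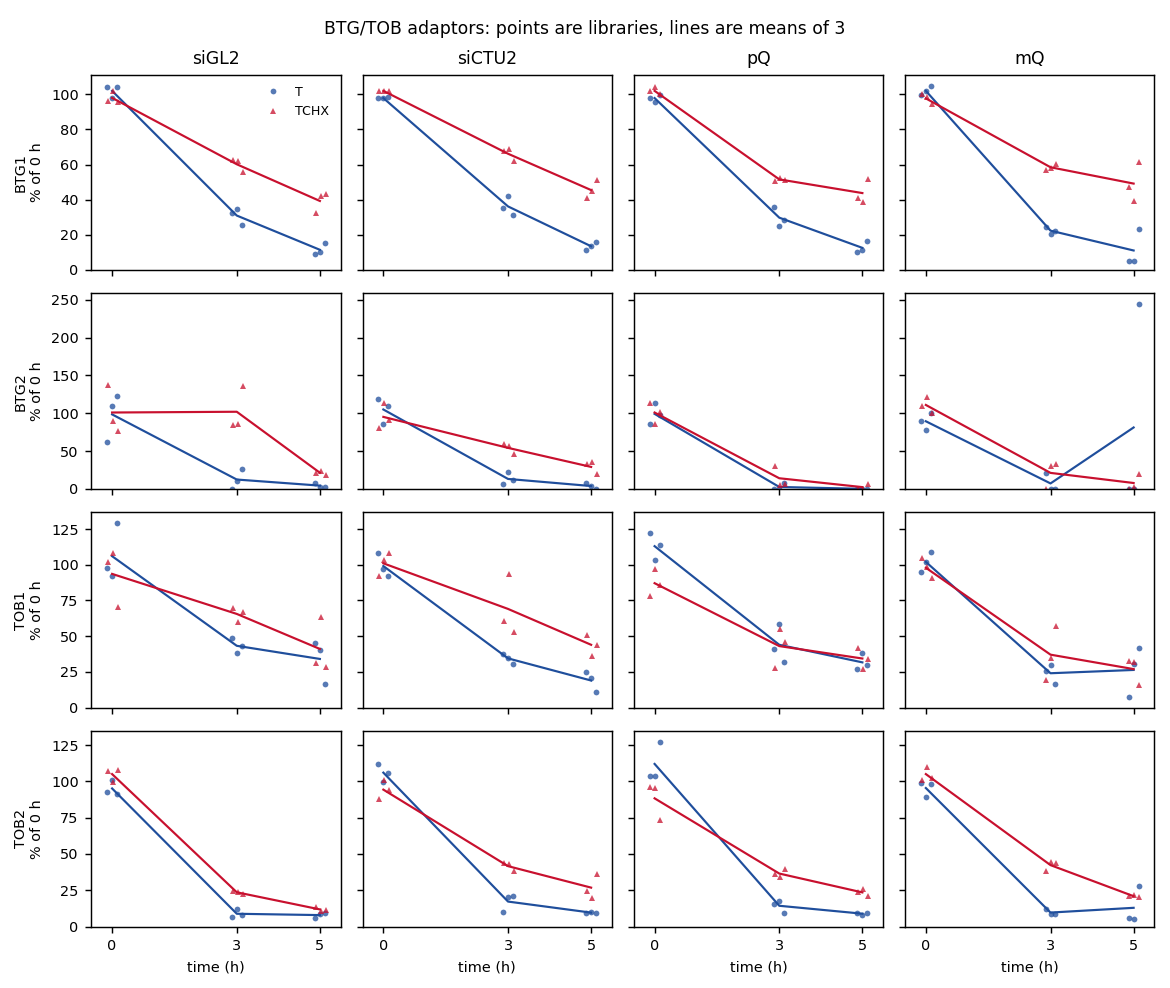
Time courses of the 4 adaptors in the 4 conditions, as a percentage of the mean 0 h level of both arms in the same replicate. Circles are T libraries, triangles TCHX libraries, and lines join means of 3; the vertical axis differs between genes. TOB2 is at 21.1% or lower in all T libraries at 3 h, the TCHX points of BTG1 lie above its T points at 3 h and 5 h in each condition, and the single point at 244% for BTG2 is the library that stands apart.

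The nuclease subunits lost less. CNOT6L was at 54.5% of its 0 h level in the median of the 12 T libraries at 3 h (44.9% to 76%), and was called lower in each condition, by 0.78, 1.00, 0.81 and 0.84 on the log2 scale. PAN3 was at 55.5% (45.9% to 65.8%), also called in each condition, with log2 changes of -0.79, -1.06, -0.87 and -0.87. CNOT7 was at 70.5% (58.4% to 80.4%), with log2 changes of -0.43, -0.39, -0.52 and -0.64, all called. For CNOT7 the direction depends on the scaling: with TMM the changes were 0.05, 0.16, 0.16 and 0.09, which did not pass. The calls of CNOT6L, PAN3 and CNOT7 were each lost in each condition without replicate 1 or replicate 2 (adjusted p from 0.0513 to 0.239).

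CNOT6 passed as lower in pQ and mQ cells (log2 -0.85 and -0.79, adjusted p = 0.0064 and 0.00508), calls that were lost without replicate 1 (0.063 and 0.0898). In siGL2 and siCTU2 cells its changes of -0.46 and -0.94 did not pass (adjusted p = 0.184 and 0.0586). CNOT8 was called in siCTU2 and pQ cells (log2 -0.75 and -0.89, adjusted p = 0.0452 and 0.0463), and both calls were lost without replicate 1 (0.274 and 0.153), the first also with the replicate block (0.056). PAN2 was not called in any condition, at log2 changes of 0.04, -0.27, -0.58 and -0.15 and with a level of 80.6% of that at 0 h in the median library. PAN2 and CNOT8 were low in replicate 3 at 5 h. Without the libraries that stand apart, the 6 libraries of that replicate and time held 1.67 to 4.82 CPM of PAN2 and 6.24 to 15.9 CPM of CNOT8, whereas the 16 libraries of replicates 1 and 2 at 5 h held 5.22 to 16.3 and 17.3 to 32.8 CPM. The ranges did not overlap, in both arms and all conditions. The 5 h values of these genes are therefore not read, and the part of these libraries in the standard errors at 3 h (0.40 to 0.48 for PAN2 and 0.28 to 0.39 for CNOT8) was not tested.

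**Figure D3:**
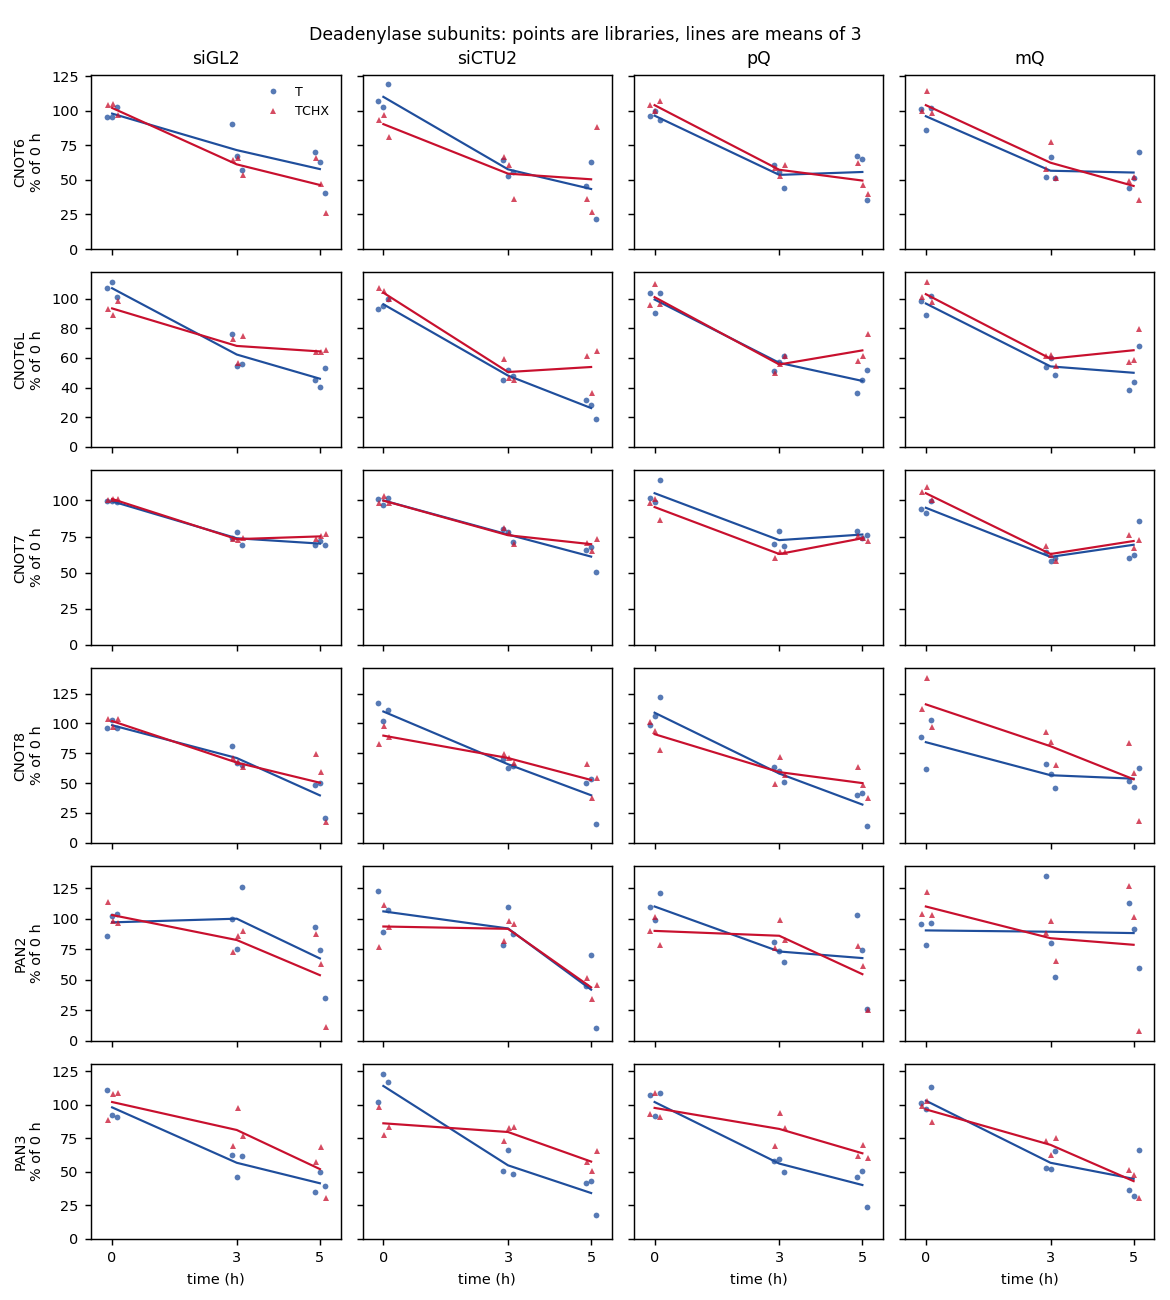
Time courses of the 6 nuclease subunits, drawn as for the adaptors. T and TCHX points overlap for CNOT6, CNOT7 and PAN2 in most panels, and the lowest points of CNOT8 and PAN2 at 5 h belong to replicate 3 (6.24 to 15.9 CPM and 1.67 to 4.82 CPM).

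**Figure D4:**
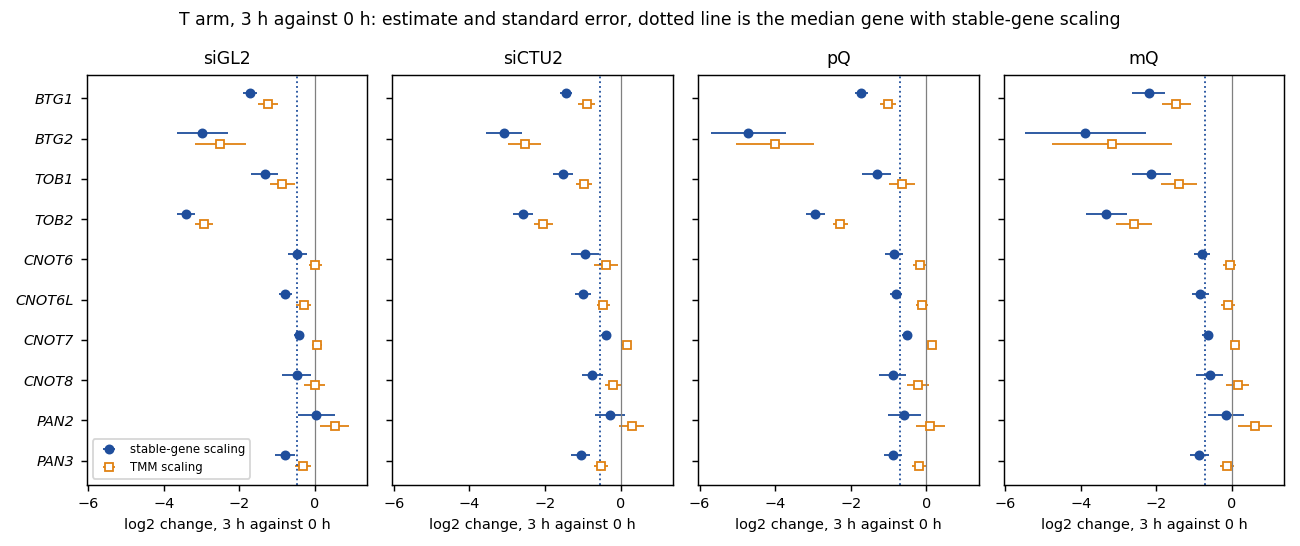
Change from 0 h to 3 h in the T arm, on the log2 scale, with its standard error, for the 10 members in each condition. Filled circles use stable-gene scaling, open squares TMM scaling, and the dotted line is the median of all genes with stable-gene scaling (-0.47, -0.55, -0.69 and -0.71). The circles of the 4 adaptors lie left of the dotted line in each panel, with TOB2 between -2.59 and -3.42.

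More of the BTG1 and TOB2 mRNA was left when translation was blocked as well. The TCHX and T arms were compared as the mean of their differences at 3 h and 5 h. In siGL2 cells 3 members were higher in the TCHX arm, in siCTU2 cells 6, in pQ cells 3 and in mQ cells 2, and none was lower. Of all genes, 12.1%, 21%, 12.3% and 5.12% were higher. Of these 14 calls, 11 were of adaptors: BTG1 and TOB2 in all 4 conditions, BTG2 in siGL2 and siCTU2 cells, and TOB1 in siCTU2 cells. At 3 h alone no member passed in mQ cells, so that BTG1 and TOB2 lost their calls there. With the 0 h difference subtracted none passed in mQ cells either. Fewer then passed in siGL2 cells, where BTG2 lost its call (adjusted p = 0.0665). In mQ cells far fewer of all genes passed as well in both settings. The median log2 difference of the members was 0.36, 0.60, 0.29 and 0.18, and that of all genes 0.05, 0.22, 0.06 and 0.05. The split of all calls depends on the scaling: 4.37%, 0.798%, 3.59% and 2.27% of them were lower in the TCHX arm with stable genes and 20.2%, 23.2%, 13.8% and 15.7% with TMM, and in pQ cells 66% with genes stable at both times. Genes stable at both times numbered only 8 in the siRNA and 3 in the medium experiment, with 0.0188% and 0.00953% of the counts. That scaling is therefore a weak alternative. The adaptor calls numbered 3, 4, 2 and 2 under each of these scalings.

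BTG1 in the TCHX arm was at 62.6%, 62% and 56% of its 0 h level in siGL2 cells at 3 h, at 67.6%, 69% and 62% in siCTU2 cells, at 50.8%, 52.6% and 51.5% in pQ cells, and at 56.9%, 58.1% and 60.4% in mQ cells. Each of these 12 values lay above each of the 12 values of the T arm, the highest of which was 42.2%. The arms differed 2.57-fold in siGL2 (log2 1.36, SE 0.14, adjusted p = 2.45e-06), 2.48-fold in siCTU2 (log2 1.31, SE 0.11, adjusted p = 2.25e-07), 2.46-fold in pQ (log2 1.30, SE 0.12, adjusted p = 6.69e-07) and 3.35-fold in mQ cells (log2 1.74, SE 0.31, adjusted p = 0.00595). The call in mQ cells was lost without replicate 1 (log2 1.64, adjusted p = 0.289) or 2 (log2 1.60, adjusted p = 0.507). Without the library that stands apart it was 2.37 (SE 0.15, adjusted p = 2.03e-09).

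TOB2 was at 24.4%, 24.1% and 22.4% in the TCHX arm at 3 h in siGL2 cells, at 43.8%, 43% and 38% in siCTU2 cells, at 36.2%, 34% and 39.4% in pQ cells and at 38.4%, 44.7% and 43.7% in mQ cells. No TCHX value was as low as the highest T value, 21.1%. The arms differed by 1.00 (SE 0.16, adjusted p = 0.000367), 1.36 (SE 0.19, adjusted p = 3.21e-05), 1.38 (SE 0.17, adjusted p = 1.9e-05) and 1.33 (SE 0.36, adjusted p = 0.0402) on the log2 scale. TOB2 was nevertheless lost in the presence of cycloheximide: at 3 h it was lower than at 0 h in each condition in the TCHX arm, by 2.14, 1.18, 1.29 and 1.29 on the log2 scale (adjusted p = 1.6e-05, 0.0142, 0.0017 and 0.0456). The difference between the arms lost its call without replicate 1 in siGL2 cells (log2 0.77, adjusted p = 0.078), and without replicate 1 (1.29, 0.364) or 2 (1.08, 0.58) in mQ cells, where it was 2.12 (SE 0.19, adjusted p = 1.15e-07) without the library that stands apart.

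BTG2 in siGL2 cells kept 24, 38 and 52 counts at 3 h in the TCHX arm, about its 0 h counts of 26, 24 and 29, and 9, 7 and 5 counts at 5 h. The change to 3 h was 0.05 on the log2 scale (SE 0.54, adjusted p = 0.95), and that to 5 h -2.21 (adjusted p = 0.00931). In siCTU2 cells 101, 109 and 100 counts went to 75, 93 and 73 and to 47, 51 and 31. The arms differed by 2.67 (SE 0.52, adjusted p = 0.00159) and 2.53 (SE 0.37, adjusted p = 5.88e-05) on the log2 scale, the first of which was lost without replicate 2 (adjusted p = 0.114). In pQ cells the TCHX arm kept 7, 2 and 3 counts at 3 h, of 13, 17 and 38 at 0 h, and BTG2 was called lower (log2 -3.05, SE 0.83, adjusted p = 0.012). The 38 counts are from the library that stands apart, without which the change was -2.83 (adjusted p = 0.0298). The call was lost with TMM scaling (adjusted p = 0.277) and without replicate 1 (0.0938) or 2 (0.142). The level at 0 h was low in pQ cells, and whether cycloheximide acted less on BTG2 there than in siGL2 cells was not tested, as these belong to separate experiments.

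TOB1 differed between the arms in siCTU2 cells, where 60.9%, 93.2% and 53.3% was left at 3 h with cycloheximide and 37.8%, 34.9% and 30.9% without it (log2 1.12, SE 0.19, adjusted p = 0.000344). In siGL2, pQ and mQ cells its differences were 0.47, 0.02 and 0.32, which did not pass. Of the nuclease subunits, CNOT6L passed in siCTU2 cells (log2 0.55, SE 0.15, adjusted p = 0.0122) and PAN3 in siCTU2 and pQ cells (log2 0.66 and 0.60, adjusted p = 0.0102 and 0.0242). All 3 were lost at 3 h alone (adjusted p of 1, 0.312 and 0.379). CNOT6 and CNOT7 had log2 differences between -0.27 and 0.09 and did not pass in any condition. CNOT8 and PAN2, whose 5 h values are not read, had differences of -0.07, 0.11, 0.03 and 0.51 and of -0.27, 0.01, 0.21 and -0.03 at 3 h alone in siGL2, siCTU2, pQ and mQ cells, with standard errors of 0.28 to 0.48, and did not pass. CNOT7, measured with 1436 to 4131 counts in the T libraries after the block, had differences of 0.04, 0.09, -0.13 and 0.04 with standard errors of 0.09 to 0.10.

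**Figure D5:**
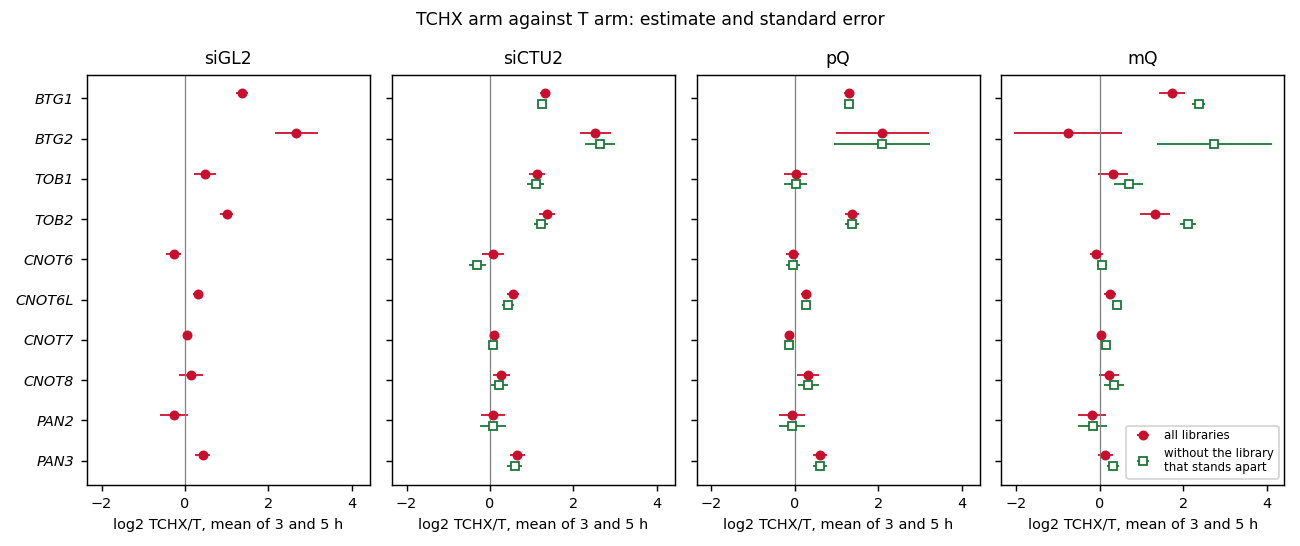
Difference between the TCHX and T arms, mean of 3 h and 5 h, on the log2 scale with its standard error. The points of CNOT8 and PAN2 include their 5 h values, which are not read. Filled circles use all libraries, and open squares leave out the library that stands apart in siCTU2, pQ or mQ cells. BTG1 and TOB2 lie right of 0 in each panel, CNOT7 lies at 0, and in mQ cells the adaptors move to the right when that library is left out.

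The library labelled mQ T 5 h replicate 3 bears on the adaptor values of mQ cells. It held 197 CPM of BTG1, as compared to 38.9 and 48.7 CPM in the other libraries of its group, 22.2 CPM of TOB2 as compared to 3.67 and 3.72 CPM, and 4.54 CPM of BTG2 as compared to 0. Without the libraries that stand apart, the BTG2 difference between the arms in mQ cells changed sign, from -0.76 (SE 1.29) to 2.75 (SE 1.37), although neither passed. CNOT6L then passed in mQ cells (log2 0.41, adjusted p = 0.0206), and the share of all genes higher in the TCHX arm went from 688 of 13442 to 2882 of 13639.

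In the TCHX arm 3, 3, 7 and 5 members were lower at 3 h than at 0 h in siGL2, siCTU2, pQ and mQ cells, where 18.3%, 3.04%, 40.5% and 36.1% of all genes were lower. In siGL2 cells these were BTG1, TOB2 and CNOT7, and in siCTU2 cells BTG1, TOB2 and CNOT6L. With the replicate block CNOT6 (log2 -0.75, adjusted p = 0.0139) and CNOT6L (-0.46, 0.0307) passed as well in siGL2 cells, 5 members in all, and CNOT8 (-0.61, 0.0411) in pQ cells. In mQ cells 8 members were lower without the library that stands apart, with BTG1 (log2 -0.74, adjusted p = 0.156 with it and 0.0038 without it), BTG2 and PAN3 in addition. With TMM scaling 1, 1, 0 and 0 members were lower, where the median of all genes moved from -0.48, -0.32, -0.57 and -0.61 on the log2 scale to between -0.02 and 0.00. The members called with TMM were TOB2 in siGL2 cells and CNOT6L in siCTU2 cells. Of all calls, 95.1%, 80.3%, 99% and 97.4% were lower with stable genes and 62.3%, 49.3%, 85.6% and 33.1% with TMM.

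The study summarised the arms as a TDD index (translation-dependent decay), the difference between the TCHX and T levels divided by the 0 h level. For BTG1 at 3 h it was 0.292 ± 0.0192 in siGL2, 0.3 ± 0.0287 in siCTU2, 0.218 ± 0.0656 in pQ and 0.361 ± 0.0307 in mQ cells (SD, n = 3). The 3 mQ values (0.326, 0.377 and 0.38) lay above the 3 pQ values (0.148, 0.277 and 0.23). At 5 h the values overlapped, with 0.42, 0.34 and 0.382 in mQ and 0.306, 0.278 and 0.351 in pQ cells, the last mQ value from the library that stands apart. For TOB2 at 3 h it was 0.148 ± 0.0274, 0.244 ± 0.0855, 0.222 ± 0.0689 and 0.326 ± 0.0533. For CNOT7 at 3 h it was between -0.0958 and 0.0202. The index is given as a description, and the 0 h level of pQ replicate 3 includes a library that stands apart.

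Whether decay or the cycloheximide effect differed between the conditions was tested as a difference of differences. The 3 h change in the T arm differed between siCTU2 and siGL2 cells for none of the 10 members. In edgeR 0% of 14259 genes passed, with 414 at an unadjusted p below 0.05, and DESeq2 called 7 genes but no member. The lowest unadjusted p of a member was that of TOB2 (0.022, log2 0.83, SE 0.34, adjusted p = 1). Between mQ and pQ cells none of the members and 0% of 14177 genes passed, with 356 at an unadjusted p below 0.05 and 5 genes in DESeq2. The difference in loss was -0.48 for BTG1 (SE 0.48) and 0.84 for BTG2 (SE 2.26), and the standard error of BTG2 leaves room for a large difference either way.

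The cycloheximide effect differed between siCTU2 and siGL2 cells for 0.379% of 14259 genes and for none of the members (edgeR, 1316 genes at an unadjusted p below 0.05; DESeq2 called 157 genes and no member). TOB1, which passed in siCTU2 and not in siGL2 cells, had a difference of 0.64 (SE 0.32, adjusted p = 0.552), so that its effect was not shown to differ between them. Between mQ and pQ cells 0% of 14177 genes passed in edgeR, with 525 at an unadjusted p below 0.05, and 4 genes in DESeq2. BTG1 had a difference of 0.44 (SE 0.34, adjusted p = 1). This result rests on the libraries that stand apart: without them BTG1 differed by 1.07 (SE 0.18, adjusted p = 0.00445), as 1 of 82 genes of 14491, and without replicate 3 by 0.88 (SE 0.14, adjusted p = 0.000812). It was the only member to pass in either setting. Both settings kept the size factors found with all libraries.

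The 32 other genes of the pathway were described by 6 lists, of which 26 genes passed the low-count filter in the tests within a condition. After 3 h in the T arm 16, 19, 21 and 22 of the 26 were lower in siGL2, siCTU2, pQ and mQ cells, and their median fell by 0.62, 0.81, 0.85 and 1.00 on the log2 scale. Of all genes 28.6%, 36%, 55.2% and 55.4% were lower, with medians of -0.47, -0.55, -0.69 and -0.71. All 5 measured subunits of the CCR4-NOT scaffold and modules were lower in each condition, as were TNRC6A, TNRC6B and TNRC6C, which join CCR4-NOT to microRNA complexes. The 2 poly(A)-binding protein mRNAs were not lower in siGL2, siCTU2 or pQ cells, with medians of -0.28, -0.24 and -0.38.

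In the TCHX arm as compared to the T arm 4, 10, 5 and 3 of the 26 were higher, with medians of 0.12, 0.36, 0.11 and 0.07. Of all genes 12.1%, 21%, 12.3% and 5.12% were higher, with medians of 0.05, 0.22, 0.06 and 0.05. NOCT, a circadian relative of the CCR4-type nucleases, was higher in each condition, by 2.12 (SE 0.25), 1.92 (SE 0.30), 1.59 (SE 0.29) and 1.97 (SE 0.47) on the log2 scale. It was also lost in the T arm, by 1.32, 1.65, 1.54 and 2.78 on the log2 scale at 3 h. CNOT4, the ubiquitin ligase subunit, differed by 0.71, 1.04 and 0.97 in siGL2, siCTU2 and pQ cells, and DCP1A, a decapping cofactor, by 0.67, 0.71, 0.58 and 0.80.

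At 0 h 5 of the 26 were higher and 5 lower in siCTU2 than in siGL2 cells, with a median of 0.05, a share near the 36% of all genes called. The scaffold subunits CNOT1 and CNOT2 were lower by 0.53 and 0.45 on the log2 scale (adjusted p = 3.98e-05 and 0.00273), while BTG3, another BTG family member, was higher by 0.95 (adjusted p = 2.26e-07). In mQ cells 5 were higher and 4 lower than in pQ cells, with a median of -0.01, where 24.8% of all genes were called. There CNOT1 and CNOT2 were higher by 0.31 and 0.45 (adjusted p = 0.0334 and 0.00791) and BTG3 was lower by 0.61 (adjusted p = 0.00277). BTG3 has a further entry of the same symbol in the count table, so its values are uncertain.

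Finally, the genes whose levels over the 24 group means were most like those of an adaptor were listed, among 11329 genes with at least 20 counts on average. For BTG1 they were XBP1, MAFF and ZCCHC8 (Pearson r over log2(CPM + 1) of 0.978, 0.977 and 0.976), for TOB2 ZNF12, ZNF121 and PPM1B (0.975, 0.957 and 0.956), for TOB1 TENT5A, RGS16 and FRAT2 (0.915, 0.914 and 0.913), and for BTG2 ZNF708, RGS16 and ZNF608 (0.916, 0.910 and 0.907). The 24 points share libraries and time courses, and r is a description.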

How the data were processed

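QuantSeq 3′ libraries of cytoplasmic RNA from A375 cells were analysed from the table of raw read counts that the authors deposited, with whole-number counts per gene, not normalised. Per the labels and the submitters' processing notes, reads were trimmed with fastp 0.20.1, aligned to GRCh38 with HISAT2 2.2.1 and counted with HTSeq 0.13.5. Reads fall at the 3′ end, so counts were not divided by length and levels were not compared between genes. ERCC spike-in RNA was not used for scaling. The depth of 5987692 to 15534331 counts limits BTG2 and TOB1 most, and intervals cover counting error only.

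Samples were grouped by their titles. Levels at 0 h were compared in the T arm over 6 libraries with TMM scaling, as CPM for display. Changes with time and between arms were fitted in each condition over 18 libraries, and differences between conditions over 36, with size factors from stable genes. These were above 0.2 CPM at 0 h and rose by 1.1 times or more in CPM at 3 h or 5 h in each condition, arm and replicate of an experiment. All tests were two-sided quasi-likelihood tests in edgeR 4.0.16 (R 4.3.3) over all genes passing its low-count filter, with Benjamini-Hochberg adjustment, called at 0.05. DESeq2 1.42.0, other scalings, no filter, a replicate block, other times, the TCHX arm at 0 h, and left-out replicates or libraries were alternatives. When replicates or libraries were left out of the fits over time, the stable genes and size factors were still those found with all libraries. Within conditions, same-numbered libraries of the groups compared were correlated (deviations from group means) in each of the 3 pairs above 0.1 in 9 of 16 comparisons. Each library was nearest to its own number in 12. The headers of the count columns also share a prefix per replicate number over all conditions, arms and times. What this prefix stands for is not stated, and the main fits had no replicate term. Blocked values are given where they change a call. The code was tested on simulated data.

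The members, the lists and the libraries that stand apart were chosen with earlier results of these data known. All 10 members were named, with at most 2 genes of a pathway list per direction and comparison, the largest past the threshold, and the 3 genes most like each adaptor. Target sites and 3′UTRs were read from GRCh38 with GENCODE annotation, and the siRNA sequences from the study's supplement.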

Additional observations from a re-analysis of the deposited data

How the results depend on the processing

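Of the values of single members under the alternatives, 1510 kept their direction and their side of the threshold. With the direction kept, 134 lost their call and 72 gained one. A further 137 changed sign without a call in either setting, and 7 reversed, that is, changed sign with a call. The reversed ones were CNOT6L between siCTU2 and siGL2 cells at 0 h in the TCHX arm (0.38), CNOT7 with TMM scaling at 3 h in the T arm (0.05 in siGL2, 0.16 in siCTU2, 0.16 in pQ and 0.09 in mQ cells) and in the TCHX arm of siGL2 cells (0.00), and BTG2 at 5 h in place of 3 h in the TCHX arm of siGL2 cells (-2.21). The following are counts of members called. Between mQ and pQ cells at 0 h the count was 2 with no low-count filter and in the TCHX arm with 1 pQ library less. With TMM scaling 3, 4, 3 and 2 members were lower at 3 h in the T arm of siGL2, siCTU2, pQ and mQ cells, and 1, 1, 0 and 0 in the TCHX arm. With genes stable at both times 8, 8 and 8 were lower in the TCHX arm of siGL2, siCTU2 and mQ cells, at 5 h in place of 3 h 9, 6 and 8, and in siGL2 cells 5 with DESeq2. The counts at 5 h are over all members, CNOT8 and PAN2 included, although the 5 h values of these 2 genes are not read above. The scaling to genes stable at both times rests on only 8 genes in the siRNA and 3 in the medium experiment. Between the arms, 1 member in siGL2 and 0 in mQ cells were higher with the 0 h difference subtracted, and 0 in mQ cells at 3 h alone. Without the libraries that stand apart 8 members were lower in the TCHX arm of mQ cells, and 1 (BTG1) differed in the cycloheximide effect between mQ and pQ cells. Leaving out 1 replicate at a time gave 4 to 5 members between siCTU2 and siGL2 cells and 1 to 2 between mQ and pQ cells at 0 h. For siGL2, siCTU2, pQ and mQ cells in turn it gave 2 to 8, 4 to 9, 3 to 9 and 3 to 8 lower at 3 h in the T arm, 2 to 4, 4 to 6, 2 to 3 and 0 to 4 higher in the TCHX than in the T arm, and 1 to 6, 0 to 3, 0 to 8 and 0 to 9 lower at 3 h in the TCHX arm. For the differences between conditions it gave 0, except 0 to 1 for the cycloheximide effect between mQ and pQ cells. Beyond the alternatives' construction the cause was not tested.

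At 0 h in the T arm same-numbered libraries of the conditions compared deviated together with correlations of 0.07 to 0.22 in the siRNA and -0.11 to 0.09 in the medium experiment. In the siRNA experiment 2 of 3 pairs were above 0.1, and 6 of 6 libraries were nearest to their own number, a hint of pairing. In the medium experiment it was 0 of 3 pairs and 2 of 6 libraries. At 5 h the correlations reached 0.80. With the replicate block 7 members in place of 5 were called between siCTU2 and siGL2 cells at 0 h, and 5 in place of 3 were lower at 3 h in the TCHX arm of siGL2 cells. The block gained the calls of TOB1 and CNOT7 at 0 h (siCTU2 against siGL2), CNOT6 and CNOT6L in the TCHX arm of siGL2 and CNOT8 in that of pQ cells, lost those of BTG2 in mQ and CNOT8 in siCTU2 cells at 3 h in the T arm, and changed no other call of a member. Over all genes it raised those lower in the TCHX arm from 2405 to 4627 in siGL2 and from 415 to 712 in siCTU2 cells.

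Counts over all genes moved more than 1.5 times with the scaling. In siGL2, siCTU2, pQ and mQ cells 3766, 4904, 7369 and 7451 genes were lower at 3 h in the T arm, 1086, 1064, 1054 and 795 with TMM, and 8247, 8056, 10302 and 11283 with genes stable at both times. In the TCHX arm they were 2405, 415, 5410 and 4854, and 188, 102, 89 and 46 with TMM, or 9159, 7849, 9902 and 9146 with genes stable at both times. The last scaling used only 8 genes in the siRNA and 3 in the medium experiment. Between the arms 1597, 2858, 1640 and 688 genes were higher, 453, 588 and 46 at 3 h alone in siGL2, siCTU2 and mQ cells, and 496, 1171, 690 and 1 with the 0 h difference subtracted. Depth limits BTG2, of which 0 to 26 counts a library were left at 3 h in the T arm.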
